A study of Mus musculus with 6 samples.

Results

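The integrin and laminin genes described here are the 42 symbols that match the integrin subunit pattern (Itga or Itgb) or the laminin chain pattern (Lama, Lamb or Lamc with a number), out of 22272 distinct symbols in the deposited table. They comprise 26 integrin subunits, 11 laminin chains and 5 symbols that share the prefix without encoding a subunit: Itgb1bp1, Itgb1bp2, Itgb3bp, Itgbl1 and the Itgb2 relative Itgb2l. Counts were high enough to test 29 of the 42. Of the 13 others, Itgad and Itgb2l had no count in any library.

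Integrins are the transmembrane receptors that hold cells to the extracellular matrix, and laminins are the matrix proteins that organise basement membranes. An integrin is a pair of an alpha and a beta subunit. The alpha subunit largely sets which ligand is bound, while talins and kindlins attach to the beta tail and link it to actin. A laminin is a cross-shaped trimer of an alpha, a beta and a gamma chain, and it is bound by integrins, by dystroglycan and by some syndecans. In skeletal muscle the laminin with the Lama2 chain and the integrin that pairs Itga7 with Itgb1 join the fibre to its basement membrane, and loss of either gives muscular dystrophy.

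RNA came from C2C12, a line of mouse myoblasts, kept undifferentiated and taken on day 0. The 3 control libraries carried GFP and are labelled WT, and the 3 others overexpressed ChREBP-beta, the short active isoform of the glucose-responsive transcription factor that Mlxipl encodes. All come from a single line. The sources used here do not say how the factor was delivered or whether replicates were separate cultures, so p-values reflect only how far these samples spread, and that spread may be technical. Library totals ran from 17600238 to 19163834 counts, and Mlxipl rose from 0.599 ± 0.111 to 219 ± 3.85 CPM (counts scaled to library size with TMM factors; SD, n = 3 per group). The 6 myoblast markers checked, led by Des and Chrna1, were all read in the GFP libraries, where they summed to between 306 and 338 CPM. In the ChREBP-beta libraries they summed to between 87.2 and 94.7 CPM, with Myod1 at 1.23 CPM on average. All 6 were lower by the test. Of 7 fibroblast markers 6 were higher and Dcn was lower, and the 7 summed to 4101 to 4324 CPM with GFP and to 6154 to 6438 CPM with ChREBP-beta. These shifts run with the groups, and their part in the results below was not tested. In bulk RNA, fewer cells of a type and less RNA per cell cannot be told apart.

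Promoter windows are shown for Lamb3 and Itgb8, which rose furthest of the tested symbols, and for Lama5 and Lama2, the laminin chains that fell furthest, since these 4 genes carry the main changes below. They were chosen after their values were seen. The windows are RefSeq's on GRCm38.p6, 250 bases before to 50 after an annotated start, read 5′ to 3′ on the gene's strand. Windows were at hand for 27 of the 42 symbols, 30 windows in all, and not for Itga6, Itga7 or Lama4, among others. Capitals mark CAGCTG, an E-box of the kind myogenic factors favour, and CACGTG, a perfect form of the E-boxes in a carbohydrate response element. Both motifs read the same on the other strand. Lamb3 (laminin beta chain, rose) is at chr1:193301744-193302043, plus strand, Itgb8 (integrin beta subunit, rose) at chr12:119238227-119238526, minus strand, Lama5 (laminin alpha chain, fell) at chr2:180225810-180226109, minus strand, and Lama2 (laminin alpha chain of muscle, fell) at chr10:27616893-27617192, minus strand.
Lamb3: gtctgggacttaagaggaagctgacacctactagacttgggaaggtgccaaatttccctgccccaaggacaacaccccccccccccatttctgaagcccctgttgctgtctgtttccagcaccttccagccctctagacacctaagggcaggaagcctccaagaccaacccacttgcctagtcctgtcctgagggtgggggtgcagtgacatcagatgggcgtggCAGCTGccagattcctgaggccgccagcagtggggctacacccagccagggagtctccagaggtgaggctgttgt
Itgb8: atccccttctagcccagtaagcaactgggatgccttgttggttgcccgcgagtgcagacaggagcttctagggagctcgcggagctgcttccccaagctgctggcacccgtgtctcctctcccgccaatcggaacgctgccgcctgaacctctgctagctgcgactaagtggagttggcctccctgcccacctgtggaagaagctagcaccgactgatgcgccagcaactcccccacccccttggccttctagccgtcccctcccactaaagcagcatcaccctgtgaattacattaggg
Lama5: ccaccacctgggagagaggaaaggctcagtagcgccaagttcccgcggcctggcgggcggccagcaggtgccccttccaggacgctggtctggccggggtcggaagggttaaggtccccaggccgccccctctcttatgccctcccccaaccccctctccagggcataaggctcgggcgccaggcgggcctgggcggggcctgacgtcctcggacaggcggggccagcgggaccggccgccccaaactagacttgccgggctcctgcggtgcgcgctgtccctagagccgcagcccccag
Lama2: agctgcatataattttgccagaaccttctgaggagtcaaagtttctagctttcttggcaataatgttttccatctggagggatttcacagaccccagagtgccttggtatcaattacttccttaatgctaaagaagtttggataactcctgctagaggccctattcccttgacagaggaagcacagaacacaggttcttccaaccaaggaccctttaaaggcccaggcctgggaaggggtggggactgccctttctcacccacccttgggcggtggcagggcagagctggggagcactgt
CACGTG was in 0 of the 30 windows and in 7.15% of all 32851 RefSeq windows at hand. An exact pair of CACGTG boxes with 5 bases between them was in 0 windows of either set. That search therefore cannot tell these windows from others. Looser forms of the element were not searched, so whether these windows hold one was not tested. CAGCTG was in 10 of the 30 windows (33.3%) and in 16.3% of all windows. Among these 4 it is seen in that of Lamb3, at bases 226 to 231 of the window, before the annotated start. A second Lamb3 window, at chr1:193301993-193302292, holds neither motif.

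Among the 29 tested symbols, 10 rose and 10 fell (edgeR, adjusted by Benjamini-Hochberg, threshold 0.05), and 9 were not called. Of all 12166 genes tested, 58.7% were called, 29.5% higher and 29.3% lower, and 69% of the tested members. Reads divided between genes were met in 3 of the 29, Itga1, Itga10 and Itgb1bp1, and in 16.9% of all tested genes. The libraries of the groups did not overlap for 22 of the 29, where 63.2% of all tested genes were so separated. The median log2 fold change of the 29 was -0.01, against -0.00 for all genes tested. The median size of change, regardless of direction, was 0.42 against 0.23 on the log2 scale. At least 2-fold rises were counted for Lamb3 and Itgb8 (4.06% of all tested genes rose so far), and at least 2-fold falls for Lama2, Lama5, Itga2b, Itga3, Itga7 and Itgbl1 (7.42% of all tested genes). A gene read well in a single group passes the count filter through that group, so these counts describe the tested symbols and not the whole family.

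**Figure D1:**
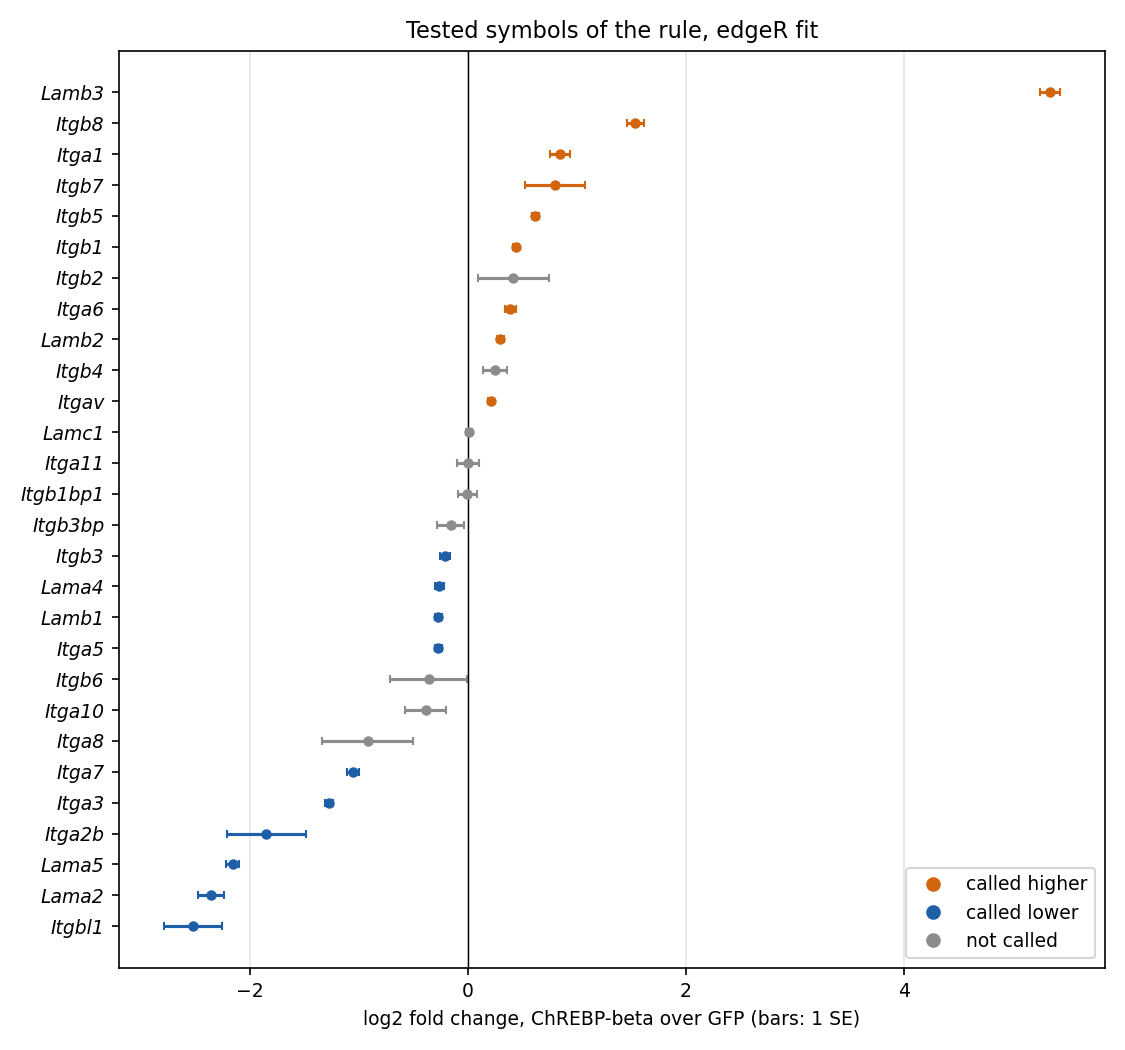
Log2 fold change of ChREBP-beta over GFP for the tested symbols described in the text (points, with bars of 1 SE), coloured by the edgeR call. Lamb3 stands at 5.34, far from the next highest, Itgb8 at 1.53, and the lowest is Itgbl1 at -2.52.

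The laminin alpha chains, whose ends carry the domains that bind receptors, all fell where they could be tested. Lama5, a broadly expressed chain of mature basement membranes, gave 143, 142 and 160 CPM in the GFP libraries (replicates in number order, here and below), and the ChREBP-beta libraries gave 29.3, 35.0 and 35.2 CPM. Every GFP library lay above every ChREBP-beta library, and Lama5 fell 4.47-fold (log2 fold change -2.16, SE 0.06, edgeR adjusted p = 3.21e-20). Lama2, the chain of muscle basement membrane, was at 18.9, 18.7 and 18.7 CPM with GFP and at 3.48, 4.20 and 3.24 CPM with ChREBP-beta. The groups were again apart, and the fall was 5.14-fold (log2 fold change -2.36, SE 0.12, edgeR adjusted p = 1.43e-14). Lama4, a chain found in vessels and around muscle and fat cells, fell only 1.20-fold, from 99.4 ± 2.58 to 82.7 ± 4.21 CPM (n = 3, SD; edgeR adjusted p = 9.29e-06). Lama1, the chain of the early embryo, had 2 counts over the GFP libraries and 3 over the ChREBP-beta libraries. Lama3, the epithelial alpha chain, had 18 and 26.

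Among the beta chains a single gene gave the largest change of the whole set. Lamb3, a chain of the laminin that anchors epidermis, was read at 2.41, 2.88 and 1.78 CPM with GFP. It was at 98.7, 92.8 and 96.7 CPM with ChREBP-beta. The lowest ChREBP-beta library was thus far above the highest GFP library, and the rise was 40.6-fold (log2 fold change 5.34, SE 0.09, edgeR adjusted p = 2.38e-24). By fold change it ranked 39 of the 12166 genes tested. Lamb3 (ENSMUSG00000026639.18) lies on chromosome 1, 193207699 to 193343878, plus strand, in GENCODE M21 on GRCm38. The authors' own build may differ. The common beta chains changed little beside it. Lamb1, the widespread chain of the embryo and adult, fell 1.21-fold, from 191 ± 0.534 to 158 ± 1.88 CPM. Lamb2, the chain concentrated at the neuromuscular junction and in kidney, rose 1.23-fold, from 212 ± 5.39 to 260 ± 3.48 CPM (n = 3, SD; edgeR adjusted p = 5.84e-08 and 7.05e-09).

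Lamc1, the gamma chain of most laminins, was not called. It stood at 377 ± 7.46 (GFP) and 379 ± 6.91 CPM (ChREBP-beta; SD, n = 3; log2 fold change 0.01, SE 0.03, edgeR adjusted p = 0.837). Lamc3 had 5 counts in each group, all in replicate 2 of both.

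**Figure D2:**
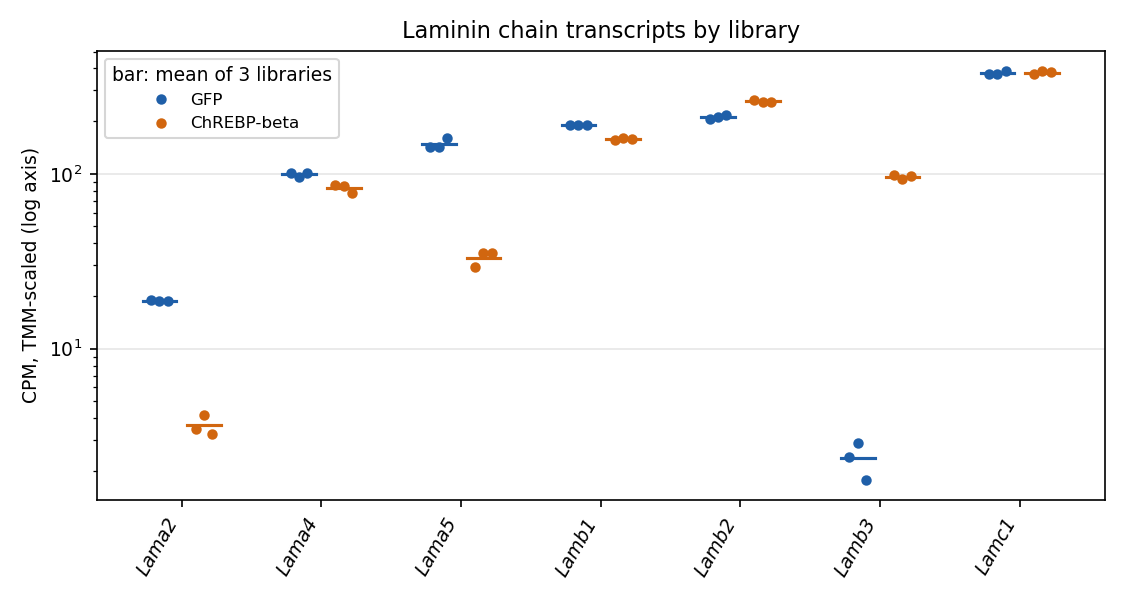
CPM of tested laminin chains described in the text (log axis) in each of the 3 GFP and 3 ChREBP-beta libraries (points), with the group mean as a bar. Lamb3 moves from 2.36 to 96.1 CPM on average, Lama5 and Lama2 move down, and the points of Lamc1 overlap.

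Lamb3 is known best from epithelia, so epithelial markers were read beside it. Of the 6 checked, 4 could be tested and Krt14 alone was called, at means of 14.0 (GFP) and 22.9 CPM (ChREBP-beta), and the 6 summed to 15.4 to 18.4 and 25.4 to 26.7 CPM. Epcam had 5 and 9 counts, and Krt5 had 6 and 0. None of the 4 lung markers was called by the main edgeR fit on all 6 libraries. They summed to a level that ran from 0.523 to 133 CPM with GFP and from 67.9 to 89.4 CPM with ChREBP-beta. GFP replicate 1, which gave the lowest of these sums, had 2.41 CPM of Lamb3, between the other GFP libraries. Without that library Scgb1a1, a lung marker, was called lower (log2 fold change -0.69, edgeR adjusted p = 8.7e-05). The part of these markers in the Lamb3 counts was not tested.

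Summed over the 11 laminin chains, the level was 1040, 1039 and 1081 CPM with GFP and 1019, 1031 and 1017 CPM with ChREBP-beta. The sums differed 1.03-fold, with the ChREBP-beta libraries just below the GFP libraries (exact two-sided permutation p = 0.1, which is as low as groups of 3 can reach). The makeup of that sum moved more than its size. For levels between chains, CPM was divided by the length of the longest GENCODE M21 transcript in kilobases. On this per-length scale Lamb3 made up 0.704%, 0.835% and 0.508% of the beta chains in the GFP libraries and 21.5%, 20.6% and 21.4% in the ChREBP-beta libraries. The share of Lamb1 went from 46.4% ± 0.539 to 29.3% ± 0.588, and that of Lamb2 from 52.9% ± 0.652 to 49.6% ± 0.203 (SD, n = 3). Among the alpha chains, Lama4 went from 52.3% ± 1.16 to 80.4% ± 1.85, Lama5 from 41.4% ± 1.32 to 17.1% ± 1.99 and Lama2 from 6.22% ± 0.246 to 2.22% ± 0.235 (SD, n = 3). Each of these 6 shares had groups that do not overlap (exact two-sided permutation p = 0.1 for each, the smallest possible). Shares within a class, here and below, add up to the whole, so they are not separate results. The share of Lamb2 fell though its CPM rose, and the share of Lama4 rose though its CPM fell. Which of Lama4 and Lama5 led with GFP depends on the length used. With the union of all exons as length, Lama5 stood at 13.0 and Lama4 at 8.23 CPM per kb, against 13.0 and 16.4 with the longest transcript.

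**Figure D3:**
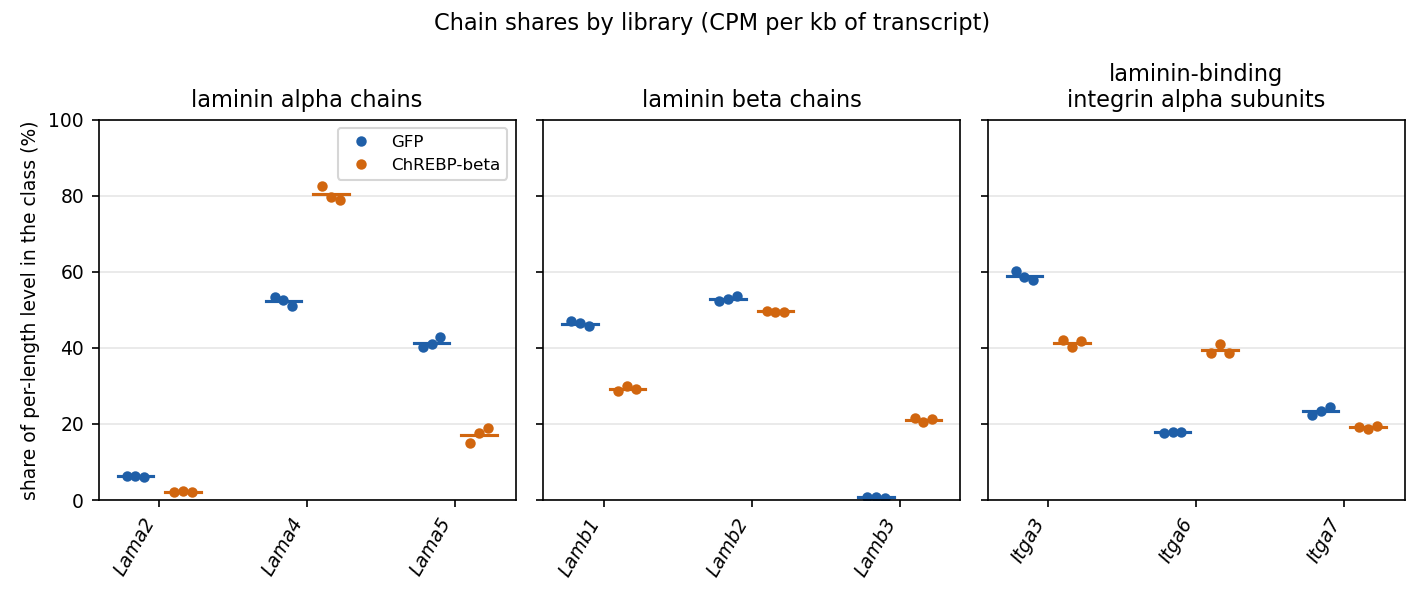
Share (%) of each chain in the per-length level of its class, for laminin alpha chains, laminin beta chains and laminin-binding integrin alpha subunits, by library (points) with group means as bars. With ChREBP-beta, Lamb3 lies between 20.6% and 21.5% of the beta chains, Lama4 averages 80.4% of the alpha chains, and Itga6 (39.5%) lies close to Itga3 (41.3%).

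The integrin alpha subunits that bind laminin, Itga3, Itga6 and Itga7, all changed. Itga3, which in epithelia binds laminins with the Lama3 or Lama5 chain, was at 216, 219 and 215 CPM with GFP and at 89.9, 89.2 and 89.3 CPM with ChREBP-beta. The libraries within each group lay close together, and Itga3 fell 2.42-fold (log2 fold change -1.27, SE 0.03, edgeR adjusted p = 1.54e-20). Itga7, the main laminin receptor subunit of muscle, was at 66.0, 72.2 and 75.2 CPM with GFP and at 34.0, 34.2 and 34.6 CPM with ChREBP-beta. It fell 2.07-fold, with no overlap (edgeR adjusted p = 4.43e-14). Itga6, shared by epithelial cells and many stem cells, rose 1.31-fold, from 55.6, 59.5 and 58.6 CPM to 73.2, 80.9 and 73.5 CPM (edgeR adjusted p = 2.66e-07). Per length, Itga6 thus went from 17.8% ± 0.249 to 39.5% ± 1.40 of these 3 subunits, and Itga3 from 58.9% ± 1.2 to 41.3% ± 0.986 (SD, n = 3). Itga7 went from 23.4% ± 1.09 to 19.2% ± 0.453. With ChREBP-beta the levels of Itga3 and Itga6 were 18.4 ± 0.0737 and 17.6 ± 1.0 CPM per kb, a gap within 1 SD of Itga6. That closeness also depends on the length used, since over the union of exons the levels were 15.7 and 8.41 CPM per kb.

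Of the 4 subunits that recognise the RGD sequence of fibronectin and related proteins, 1 rose, 2 fell and 1 was not called. That is 75% called, against 58.7% of all genes tested. The median size of change was 0.60 on the log2 scale against 0.23 for all genes tested. The larger changes were those of the scarce Itga2b and Itga8, while the abundant Itga5 and Itgav changed by -0.27 and 0.21. Itga5, the fibronectin receptor subunit, fell 1.21-fold, from 392 ± 14.0 to 325 ± 13.1 CPM, while Itgav, which binds vitronectin and latent TGF-beta, rose 1.16-fold, from 345 ± 7.69 to 401 ± 12.7 CPM (n = 3, SD; edgeR adjusted p = 1.31e-07 and 1.22e-06). Per length Itga5 was the higher of the pair in both groups, at 88.7 ± 3.18 against 49.0 ± 1.09 CPM per kb with GFP and 73.5 ± 2.97 against 56.8 ± 1.81 CPM per kb with ChREBP-beta (SD, n = 3). Itga2b, the platelet fibrinogen receptor subunit, was scarce: 2.93, 1.49 and 3.57 CPM with GFP and 0.598, 0.904 and 0.694 CPM with ChREBP-beta. Its groups were apart, and it fell 3.61-fold (edgeR adjusted p = 1.09e-04). Of 7 platelet and red cell markers, 4 had enough counts to test and Gp9 was at 0 in every library. The 7 summed to 5.81 to 10.5 CPM with GFP and 6.07 to 9.03 CPM with ChREBP-beta, with Pf4 at 12 and 6 counts over the groups. Ppbp was lower, at means of 1.07 (GFP) and 0.486 CPM (ChREBP-beta; edgeR adjusted p = 0.0357), and the other 3 tested were not called. Without GFP replicate 3 Hbb-bs was called higher (edgeR adjusted p = 0.0131), and without ChREBP-beta replicate 1 Hba-a1 was called lower (0.00445). Their part in the Itga2b counts was not tested. Itga8, a subunit of smooth muscle and kidney mesenchyme, had 52 and 27 counts, and its log2 fold change of -0.92 (SE 0.42) was not called (edgeR adjusted p = 0.0642).

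Of the collagen-binding subunits only Itga1 passed the test. It was at 11.8, 11.8 and 14.2 CPM with GFP and at 24.0, 22.4 and 21.6 CPM with ChREBP-beta, a 1.80-fold rise without overlap (edgeR adjusted p = 2.29e-08). Its counts in 2 libraries held reads divided between genes. Itga11, a fibrillar collagen receptor subunit of mesenchymal cells, stood at 12.4 ± 0.905 (GFP) and 12.4 ± 0.306 CPM (ChREBP-beta; log2 fold change -0.00, SE 0.10, edgeR adjusted p = 0.994). Itga10, a subunit of cartilage, was at 5.57 ± 1.31 (GFP) and 4.25 ± 0.654 CPM (ChREBP-beta; SD, n = 3; edgeR adjusted p = 0.0827), with split reads in 4 libraries. It was called lower without GFP replicate 1 (edgeR adjusted p = 0.0499) and without ChREBP-beta replicate 2 (0.049). Itga2 had 20 and 13 counts and was not tested.

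Among beta subunits, Itgb1, the partner of most alpha subunits, had the highest level per length of the 42 symbols in both groups, 226 CPM per kb with GFP and 307 CPM per kb with ChREBP-beta. It was read at 858, 863 and 863 CPM with GFP and at 1152, 1170 and 1188 CPM with ChREBP-beta. It rose 1.36-fold (log2 fold change 0.44, SE 0.03, edgeR adjusted p = 1.77e-13) with no overlap. Its share of all beta subunits per length was 79.3% ± 0.269 with GFP and 79.2% ± 0.322 with ChREBP-beta (SD, n = 3; two-sided exact permutation test, p = 0.7). Next in that order came Itgb5, a partner of Itgav that binds vitronectin. It was at 124, 125 and 118 CPM with GFP and at 185, 189 and 189 CPM with ChREBP-beta, a 1.54-fold rise (edgeR adjusted p = 6.59e-14). Itgb3, the other vitronectin receptor partner of Itgav, fell 1.15-fold, from 98.7 ± 6.34 to 85.6 ± 3.84 CPM (n = 3, SD; edgeR adjusted p = 4.84e-04).

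Itgb8, which pairs with Itgav to hold and activate latent TGF-beta, had the largest rise of any integrin subunit tested. It was at 13.2, 14.5 and 14.4 CPM with GFP and at 43.5, 41.6 and 36.8 CPM with ChREBP-beta. All ChREBP-beta libraries were above all GFP libraries, and the rise was 2.90-fold (log2 fold change 1.53, SE 0.08, edgeR adjusted p = 1.44e-14). The 4 subunits that pair with Itgav besides Itgb1 thus took different courses: Itgb5 and Itgb8 rose, Itgb3 fell, and Itgb6, an epithelial subunit, had 78 and 60 counts and was not called (edgeR adjusted p = 0.399). Itgb4, the long-tailed epithelial subunit that pairs with Itga6 in hemidesmosomes, was at 9.97 ± 0.661 (GFP) and 11.8 ± 1.16 CPM (ChREBP-beta; SD, n = 3; edgeR adjusted p = 0.0608). It was called higher without ChREBP-beta replicate 3 (edgeR adjusted p = 0.0237).

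**Figure D4:**
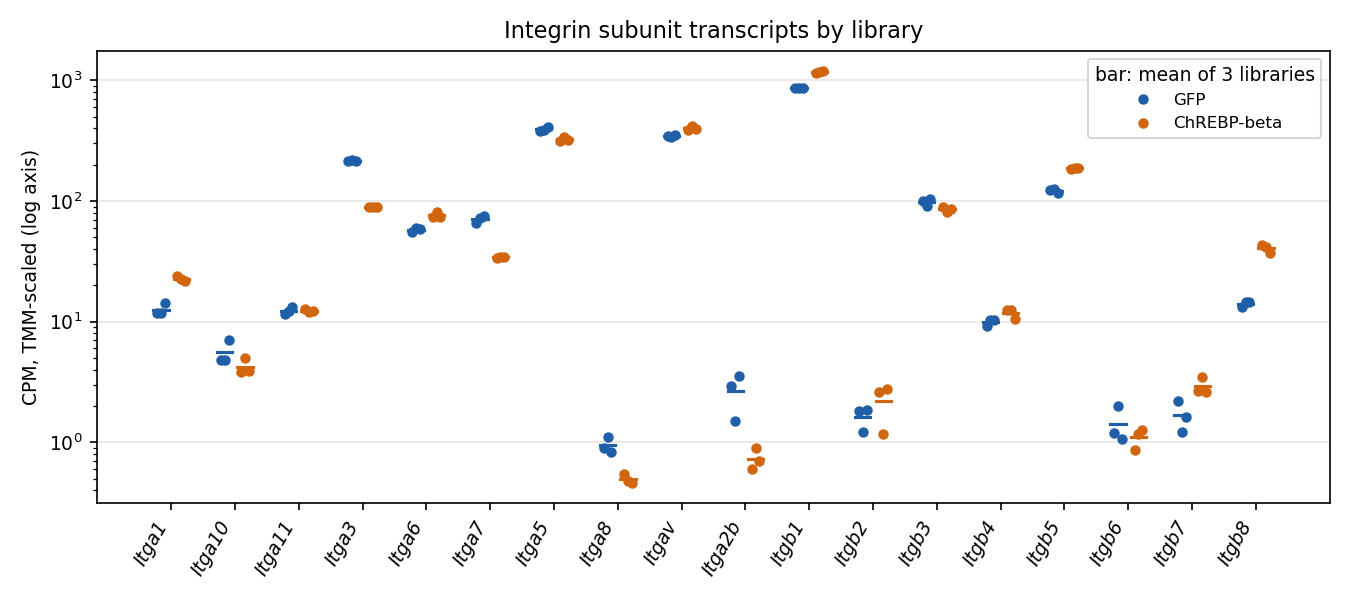
CPM of the 18 tested integrin subunits (log axis) in each GFP and ChREBP-beta library (points; bars are group means), ordered by ligand class, with the beta subunits at the right. Itgb1 has the highest CPM in every library, Itga3 and Itga7 drop, and Itgb8 rises.

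Summed over the 26 subunits, integrin transcripts came to 2206, 2217 and 2265 CPM with GFP and 2436, 2502 and 2469 CPM with ChREBP-beta, a 1.11-fold difference without overlap (exact two-sided permutation p = 0.1, the smallest possible). Without Itgb1 the sum was lower with ChREBP-beta, at a log2 ratio of -0.074.

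Subunits of blood cells were near the limit of detection. Itgal, Itgam, Itgax and Itgae, alpha subunits of leukocytes, had between 6 and 29 counts over the GFP libraries and between 8 and 20 over the ChREBP-beta libraries, too few to test. Itgb2, the partner of Itgal, Itgam and Itgax, had 90 and 118 counts (edgeR adjusted p = 0.282). Itgb7, the gut-homing partner of Itga4 and Itgae, had 93 and 160 counts and rose 1.74-fold (edgeR adjusted p = 0.0161), but was not called without GFP replicate 2 (edgeR adjusted p = 0.0902) or without ChREBP-beta replicate 2 (0.1). Of 8 leukocyte markers 3 could be tested, and none was called in the main edgeR fit. Lyz2 was called higher without GFP replicate 3 (log2 fold change 0.89, edgeR adjusted p = 0.00403) and without the count filter (5.49e-05). The 8 summed to 5.91 to 17.6 CPM with GFP and 15.5 to 17.8 CPM with ChREBP-beta, with Lyz2 the main contributor, and Ptprc, which marks all leukocytes, had 18 and 28 counts. Their part in the Itgb7 counts was not tested. Itga4 and Itga9, which bind VCAM and tenascin, had 25 and 18 counts and 13 and 30 counts. The Itga9 libraries did not overlap, but it was not tested.

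Of the symbols that are not subunits, 3 were tested and Itgbl1 alone was called. Itgbl1, a secreted protein with integrin-like repeats, was at 4.24, 5.09 and 5.96 CPM with GFP and at 0.653, 1.06 and 0.925 CPM with ChREBP-beta, a 5.74-fold fall without overlap (edgeR adjusted p = 1.59e-08). Itgb1bp1, which binds the Itgb1 tail and restrains talin, was at 20.1 and 20.0 CPM on average (edgeR adjusted p = 0.964), with split reads in all 6 libraries. Itgb3bp, a centromere protein also known to bind the Itgb3 tail, was at 11.2 ± 1.92 (GFP) and 10 ± 0.393 CPM (ChREBP-beta; SD, n = 3; edgeR adjusted p = 0.272), and was called lower without GFP replicate 3 (edgeR adjusted p = 0.0467). Itgb1bp2, the muscle protein melusin, had 2 counts in each group.

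Genes that work with integrins and laminins were read from 4 lists holding 100 symbols, of which 89 were tested, 36 were higher and 39 lower with ChREBP-beta. That is 84.3% of the tested genes against 58.7% of all genes tested, in nearly equal numbers each way, with a median log2 fold change of -0.01. Genes with more counts are called more readily, and neither these lists nor the members were matched to all genes by level. Basement membrane partners divided most widely: 4 were higher, 7 lower and 2 not called, so that 84.6% of those tested were called. Their median size of change was 1.0 on the log2 scale, against 0.23 for all genes tested. The collagen chains Col4a1 and Col4a2, which form the common basement membrane network, rose 3.62-fold and 3.82-fold (edgeR adjusted p = 7.23e-25 and 3.81e-24). Col4a5 and Col4a6, chains of other networks, fell 3.80-fold and 9.57-fold (edgeR adjusted p = 2.11e-19 and 2.89e-08). Col4a3, with 23 and 42 counts, was not called (edgeR adjusted p = 0.146), and Col4a4 had too few counts to test. Nid2, one of the nidogens that tie laminin to collagen, fell 3.89-fold, from 145 to 37.3 CPM, with split reads in all 6 libraries. Its paralog Nid1 was higher, at means of 402 (GFP) and 470 CPM (ChREBP-beta; edgeR adjusted p = 2.17e-07). Col15a1 fell 6.47-fold, Col18a1 2.0-fold and the laminin-like Ntn4 1.65-fold. Ntn4 had 140 and 84 counts and was not called without GFP replicate 3 (edgeR adjusted p = 0.196).

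Of the matrix ligands of integrins, 9 were higher, 8 lower and 3 not called. That is 85% of the tested genes of this list, against 58.7% of all genes tested. Thbs2, a thrombospondin, rose 7.74-fold from 146 to 1130 CPM, Ccn2 4.88-fold, Postn 3.38-fold and Fbn1, the microfibril protein, 1.56-fold. Npnt, the basement membrane ligand of Itga8, fell 3.95-fold, Edil3 4.50-fold, Fbln5 2.17-fold, Tgfb3 1.93-fold and Vcam1 1.68-fold. Fn1, fibronectin, rose from 6141 to 7933 CPM (edgeR adjusted p = 6.65e-11).

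**Figure D5:**
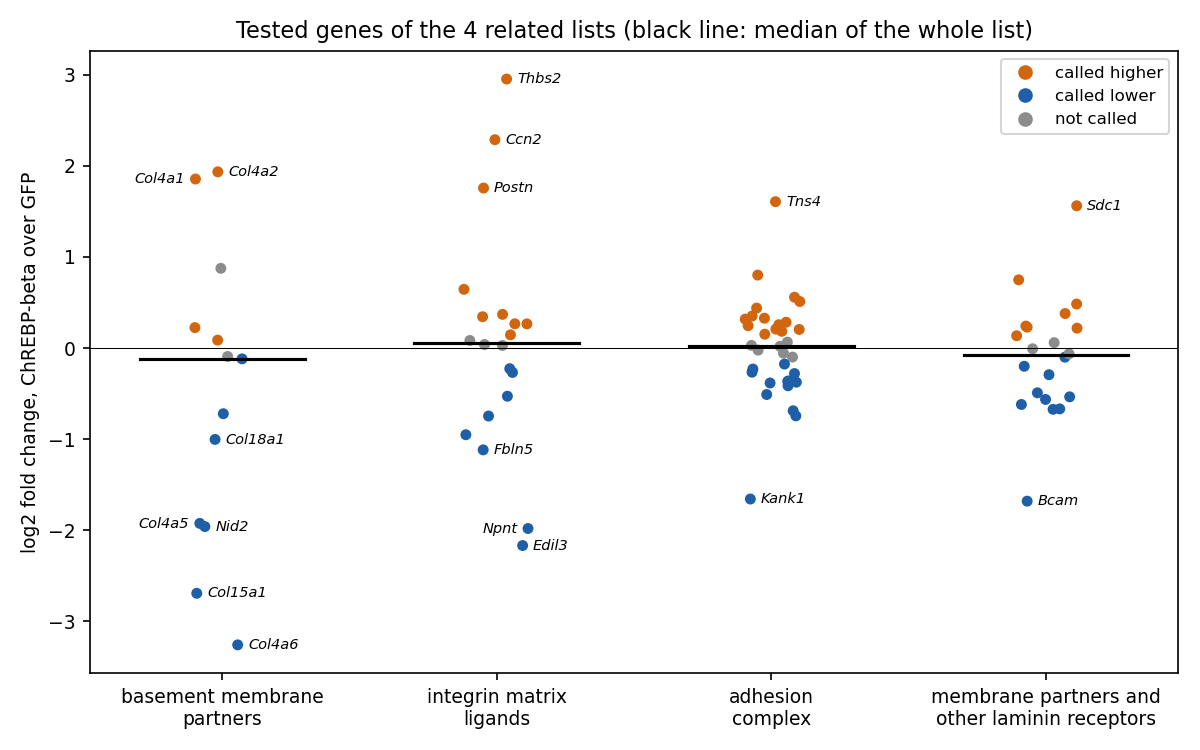
Log2 fold change (ChREBP-beta over GFP) of tested genes in the 4 related lists, one point per gene coloured by call, with the list median as a black line. Medians lie near 0 in all 4 lists, while the genes shown range from Col4a6 at -3.26 to Thbs2 at 2.95.

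Genes of the adhesion complex at the integrin tails gave 15 that rose, 13 that fell and 6 not called. That is 82.4% of the tested genes of this list, against 58.7% of all genes tested, with a median size of change of 0.30 on the log2 scale against 0.23. Tns1, a tensin, rose 1.74-fold and its paralog Tns2 fell 1.68-fold (edgeR adjusted p = 9.12e-18 and 1.47e-15). Tln1, the main talin, went from 537 to 765 CPM (log2 fold change 0.51, SE 0.03, edgeR adjusted p = 3.58e-14). The kindlin Fermt2 and the integrin-linked kinase gene Ilk were not called (edgeR adjusted p = 0.582 and 0.553), and Ilk held split reads in all 6 libraries. Kank1 fell 3.16-fold, Lims2 1.61-fold, and Tns4, with 13 and 40 counts, rose 3.05-fold. Tns4 was not called without GFP replicate 2 or ChREBP-beta replicate 2 (edgeR adjusted p = 0.0584 and 0.0628), nor Lims2 without ChREBP-beta replicate 1 or 3 (0.0698 and 0.0632).

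Membrane partners and other laminin receptors gave 8 higher, 11 lower and 3 not called. In this list 86.4% of the tested genes were called, against 58.7% of all genes tested. Sdc1, a syndecan, rose 2.95-fold from 182 to 538 CPM, and Plaur, the urokinase receptor, 1.68-fold (edgeR adjusted p = 3.98e-23 and 9.79e-12). Sdc2 fell 1.59-fold and the tetraspanin Cd82 1.59-fold. Bcam, a receptor for laminins with the Lama5 chain, fell 3.21-fold at low level, from 4.14 to 1.28 CPM (edgeR adjusted p = 2.95e-06). Dag1, dystroglycan, was higher, at means of 331 (GFP) and 391 CPM (ChREBP-beta; edgeR adjusted p = 7.31e-08), whereas the muscle sarcoglycan Sgcb fell 1.54-fold.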

How the data were processed

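RNA-seq covered 6 C2C12 libraries, 3 per group. The authors deposited an expected count (estimated count) per gene symbol and library, not normalized, of which 7.74% were not whole numbers (tolerance 1e-06), per the values in the deposited table. Per the submitters' processing notes, fastp, Bowtie2 2.0.0.5 and TopHat2 2.0.0 were used, and the build named there is a chicken build although the symbols are mouse. For the counting tool, the strand setting and the mouse build, the sources used here name nothing. A fractional value was taken as reads divided between genes.

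Counts of 24 repeated symbols were summed and rounded. Genes were filtered (filterByExpr, minimum count 10, minimum total 15), scaled by TMM and tested with edgeR 4.0.16 (R 4.3.3; quasi-likelihood test, Benjamini-Hochberg adjusted p under 0.05) over 12166 genes. Replicates differed by 2.15 to 3.96 times the sampling variance (chi-square per degree of freedom), and the common biological coefficient of variation was 3.44%. These values do not show whether replicates were separate cultures, since technical steps can also add variance. The fit was tested on simulated data, where it recovered 74% of 1.25-fold changes and 96% of 2-fold changes. Of 187 calls there, 9 were false. Far fewer genes changed in the simulation than were called here, so it cannot speak for data with so many changes. Alternatives were other scalings, filters and rounding, DESeq2 1.42.0, limma-voom (limma 3.58.1), a replicate block and each library left out.

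Levels between genes used the longest transcript of GENCODE M21 (GRCm38). This length was chosen after it and the union of exons had both been seen, because for some genes the union was far longer than any single transcript. All 42 symbols had a location in that annotation. Members that passed the filter are described with values and the others by their counts, and related genes are named when called and changed at least 1.5-fold. A few genes these rules would name are not reported here, though counts over whole lists include them. The few others named (Nid1, Fn1, Tln1, Fermt2, Ilk and Dag1) were chosen after their values were seen. So were marker genes named beyond the 2 highest of a list. The members and lists were chosen with earlier results of these data known.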

Additional observations from a re-analysis of the deposited data

How the results depend on the processing

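Of the 20 called members, 19 kept their call and direction under every alternative that gave a value, and Itgb7 was the exception. Of the 9 uncalled members, 6 stayed uncalled, and Itga10, Itgb4 and Itgb3bp were called when single libraries were left out. The summed laminin level, at a log2 ratio of -0.04, was -0.090 with library size alone and -0.18 without Lamb3, an alternative chosen after seeing the data. The summed integrin level, at 0.15, was 0.11 with upper-quartile scaling, 0.10 with library size alone and -0.074 without Itgb1. Among the markers, Scgb1a1 went from -0.09 to 2.36 with limma-voom. Alb, Apoa1, Lyz2, Sftpc, Hbb-bs and Hba-a1, uncalled in the main edgeR fit, were also called with limma-voom. Without the count filter edgeR called all of these but Apoa1, and with a replicate block it called Alb (edgeR adjusted p = 0.0317). Without GFP replicate 3, Alb reached a log2 fold change of 7.62 and Apoa1 7.42. The cause was not tested. Other scalings moved the median log2 fold change of all genes by at most 0.0463 in size. With a replicate block, 3474 genes were higher and 3428 lower, 10 members each way, and 36 and 37 related genes. Deviations of same-numbered libraries correlated at -0.0182, 0.00151 and -0.04, so the numbers were not taken to pair samples. The call of Ntn4 was lost with the block (edgeR adjusted p = 0.0664), with DESeq2 (0.0546) and without any of 5 libraries (0.0515 to 0.196). With the union of exons as length, chosen after seeing the data, 18 chain shares moved by more than the combined SD of both groups. These were most of the shares compared, since each share had a single alternative of this kind. Some subunits, such as Itgav, are counted in several sets there. The other 150 alternative values of shares, mostly with a library left out, stayed within it. The 13 untested symbols had too few counts for the filter, and low expression and depth cannot be told apart there.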

Other observations

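The genes beside Lamb3 on chromosome 1 were read because its rise was the largest of the set, a choice made after its value was seen. In GENCODE M21 the Lamb3 gene model extends over G0s2, an inhibitor of the lipase that breaks down stored fat, and Hsd11b1, the enzyme that regenerates active glucocorticoid. Both lie on the other strand and share 0 exon bases with it. Hsd11b1 went from 0.460 ± 0.384 CPM with GFP to 16.3 ± 1.66 CPM with ChREBP-beta, and G0s2 from 3.72 ± 0.0639 to 20.1 ± 1.63 CPM (SD, n = 3). Both were higher by edgeR, with adjusted p = 2.77e-15 and 4.63e-15. On the far side, Camk1g was not tested, and Plxna2 and Cd34 were lower, by log2 fold changes of -0.62 and -0.26 (edgeR adjusted p = 3.22e-09 and 2.08e-08). Whether the strand was used in counting is not given, so reads of overlapping genes cannot be told apart beyond the exon overlap stated.

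Exons of other genes overlap some members. Itgam shares 3450 exon bases with Gm49368, Itga10 shares 1739 with Gm42957 and Itga1 shares 685 with Gm49395, each on the same strand. On the other strand, Itga4 shares 1124 exon bases with Cerkl and Itgb3bp shares 398 with Pgm1. Itgb1bp1 shares 402 with Asap2 and 196 with Cpsf3, also on the other strand.

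The marker lists not given above were read in the same way. The 6 endothelial markers summed to 0.889 to 6.24 CPM with GFP and 4.34 to 7.97 CPM with ChREBP-beta. The 4 Schwann cell markers, with Sox10 at 0, summed to 2.01 to 2.16 and 1.73 to 1.85 CPM. The 5 hepatocyte markers summed to 0 to 21.5 and 12.5 to 18.3 CPM. Alb had 2, 0 and 292 counts in the GFP libraries and 273, 208 and 169 in the ChREBP-beta libraries. Apoa1 had 0, 0 and 37 against 22, 22 and 19. The hepatocyte markers were thus near 0 in GFP replicates 1 and 2 only. The part of such reads in the low-count members was not tested.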
